A study of Mus musculus with 6 samples.

Results

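The 10 genes described here encode proteins of the brush border, the array of microvilli on the apical face of absorptive epithelial cells. They were taken by symbol from the deposited tables and are *Vil1*, *Myo1a*, *Myo7a*, *Myo7b*, *Ezr*, *Espn*, *Eps8*, *Ush1c*, *Cdhr2* and *Cdhr5*, so 10 of 23366 genes. RNA-sequencing had been performed on epithelium of the small intestine at embryonic day 13.5, with 3 libraries from embryos of the genotype Shh-cre-egfp:Tcf7l1 lox/lox (mutant) and 3 from wild type embryos, none of them treated. In the mutants, Cre and EGFP are expressed from the *Shh* locus, which is active in gut epithelium, and Cre removes a floxed exon of *Tcf7l1*, a transcription factor gene of the WNT pathway. Each library came from 500 living cells sorted for EpCAM, a surface protein of epithelial cells. The labels call the samples biological replicates and do not say which embryos or litters they came from, so p-values measure the spread between these libraries. No library carried Cre with *Tcf7l1* intact.

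A microvillus is a finger of membrane around a core of parallel actin filaments. Bundling proteins hold the core together, myosin motors and ezrin tie it to the membrane, and factors at the tip control its growth. Neighbouring microvilli are joined at their tips by the protocadherins CDHR2 and CDHR5, which bind each other and, inside the cell, the scaffold protein harmonin (USH1C) and the motor MYO7B. Sensory hair cells of the inner ear use related proteins, among them MYO7A, to link their stereocilia. In the gut the brush border is assembled as enterocytes differentiate, and it carries the digestive enzymes and transporters.

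Total counts lay between 18216537 and 20397278. Of all genes, 12501 passed a filter on low counts and were tested with edgeR's quasi-likelihood test, and all 10 brush border genes were among them. Counts are given after TMM normalisation, which scales the libraries by their bulk of genes, as mean ± SD of 3 libraries. A gene was called when its adjusted p was under 0.01, its absolute log2 fold change (mutant over wild type) at least 0.5 and its mean normalised count at least 50. *Tcf7l1* itself had normalised counts of 476, 474 and 364 in the wild type libraries 1, 2 and 3 and of 41.4, 33.0 and 73.0 in the mutant libraries 1, 2 and 3, which is -3.16 on the log2 scale (SE 0.26, adjusted p = 4.2e-07). The groups also differed in other ways. *Shh* fell from 481 ± 65.8 to 198 ± 22.6, *Xist* had 0 counts in every wild type library and 229, 424 and 289 in the mutant libraries, and the Y-linked *Ddx3y* had 0 counts in every mutant library and 1837 to 2254 in wild type. Effects of *Tcf7l1*, of the Cre allele and of the sex of the embryos can therefore not be told apart. Among libraries of one group, the counts differed by 6.30 to 17.9 in chi-square per gene, so no library was a copy of another.

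In the mutant epithelium, 2 of the 10 genes were called lower and 0 higher. *Myo7a*, which encodes a class VII myosin, fell by 2.26 on the log2 scale, and *Myo1a*, which encodes the membrane-linking motor of the microvillus, fell by 0.90. Of all tested genes, 5.83% were called lower, 2.78% higher and 8.62% in either direction. By the adjusted p alone, again 2 of the 10 were lower and 0 higher, against 7.61% and 7.32% of all tested genes. The genes *Vil1*, *Ezr*, *Eps8*, *Ush1c*, *Cdhr2*, *Cdhr5* and *Myo7b* were not called, and neither was *Espn*, which came closest. The median log2 fold change of the 10 genes was -0.17, against -0.04 over all tested genes. In bulk samples, fewer cells that express a gene and less RNA per cell cannot be told apart.

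**Figure D1:**
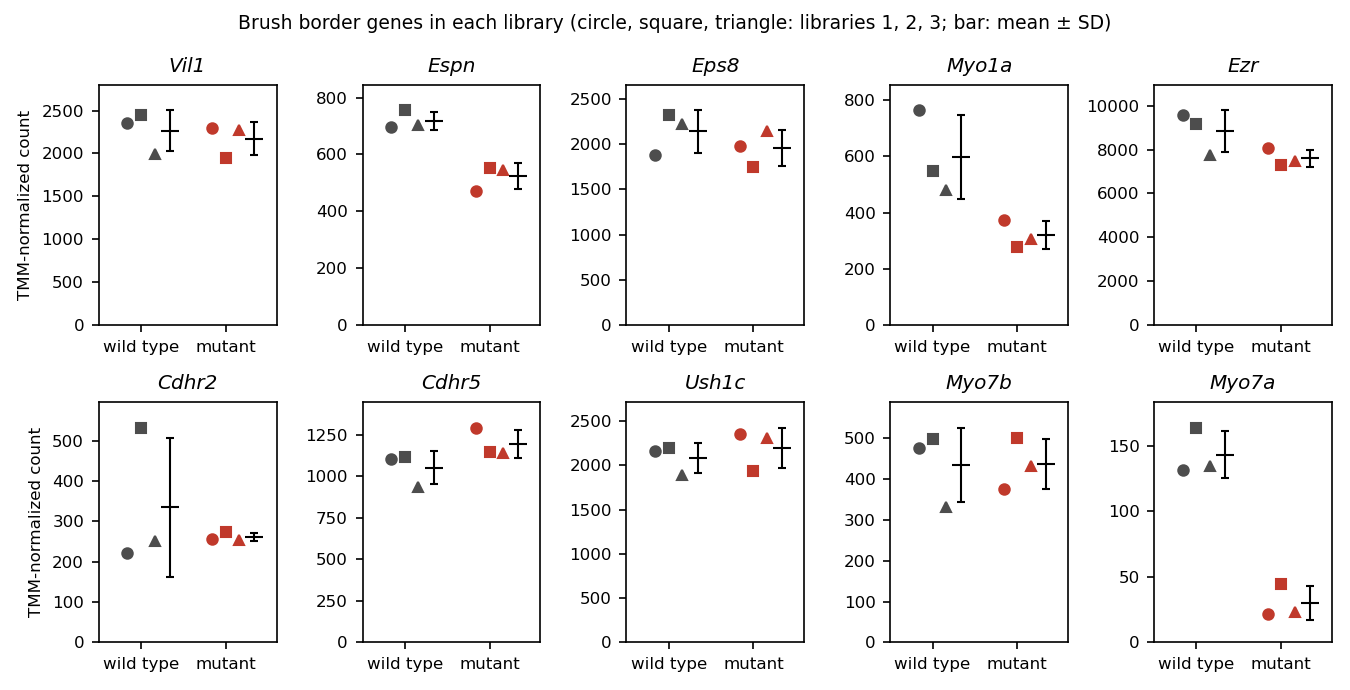
TMM-normalised count (vertical axis, from 0) of each gene in the 3 wild type (grey) and 3 mutant (red) libraries, with the mean ± SD beside each group. The groups are separate for *Myo7a*, *Myo1a* and *Espn*, which are lower in the mutants, and for *Cdhr5*, which is higher, and 1 wild type library of *Cdhr2* stands at 532, above the other 5.

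Sequence just upstream of the start is shown for 5 genes: *Myo7a* and *Myo1a*, which fell, and *Vil1*, *Espn* and *Cdhr2*, in which a searched motif was found. The sequences are RefSeq's, in build GRCm38.p6, 250 bases each, 5′ to 3′ on the gene's strand and ending next to the annotated start, and capitals mark a motif match. The counts themselves were made on build mm9. *Myo7a* has 2 annotated starts in the table, of which the outer one is shown, and *Espn* has 3, of which the innermost is shown.
Myo7a, chr7:98119494-98119743, minus strand: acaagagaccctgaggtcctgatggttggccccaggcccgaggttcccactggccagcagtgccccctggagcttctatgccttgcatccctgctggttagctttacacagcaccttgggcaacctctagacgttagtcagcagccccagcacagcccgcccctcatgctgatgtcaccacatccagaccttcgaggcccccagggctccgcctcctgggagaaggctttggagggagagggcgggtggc
Myo1a, chr10:127705006-127705255, plus strand: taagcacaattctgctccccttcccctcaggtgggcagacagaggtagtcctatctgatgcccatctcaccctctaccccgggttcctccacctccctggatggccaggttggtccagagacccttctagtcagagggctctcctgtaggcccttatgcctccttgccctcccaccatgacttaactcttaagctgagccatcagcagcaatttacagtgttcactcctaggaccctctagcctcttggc
Vil1, chr1:74409134-74409383, plus strand: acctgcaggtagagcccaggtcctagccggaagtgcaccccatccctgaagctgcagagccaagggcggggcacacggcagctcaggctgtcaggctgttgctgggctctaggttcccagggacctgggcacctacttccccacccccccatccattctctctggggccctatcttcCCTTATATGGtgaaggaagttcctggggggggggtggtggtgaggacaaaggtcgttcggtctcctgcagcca
Espn, chr4:152128926-152129175, minus strand: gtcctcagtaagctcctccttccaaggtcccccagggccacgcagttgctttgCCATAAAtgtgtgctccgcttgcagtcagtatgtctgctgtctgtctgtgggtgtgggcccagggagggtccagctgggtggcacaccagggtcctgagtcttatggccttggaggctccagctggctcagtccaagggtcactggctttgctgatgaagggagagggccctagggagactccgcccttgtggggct
Cdhr2, chr13:54701213-54701462, plus strand: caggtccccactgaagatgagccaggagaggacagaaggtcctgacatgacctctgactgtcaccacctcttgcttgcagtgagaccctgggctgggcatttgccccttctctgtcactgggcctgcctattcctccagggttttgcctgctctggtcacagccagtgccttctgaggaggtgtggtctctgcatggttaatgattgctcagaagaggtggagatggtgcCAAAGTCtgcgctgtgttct
Windows of 300 bases, from 250 before to 50 after the start, were searched on both strands for 8 of the 10 genes, 11 windows in all. *Myo7b* and *Eps8* were not searched. The TCF/LEF motif, to which TCF7L1 binds, was searched as CTTTGAT and as CTTTGTT, and 0 of the 11 windows held either form, against 9.33% of 32851 windows of all genes. The motif CAAAGTC, part of an HNF4 site, shares the letters CAAAG with the reverse of the TCF/LEF motif. It was found in the *Cdhr2* window, beginning 20 bases before the start, and in 4.44% of all windows. The CDX motif TTTATGG was found on the reverse strand of the *Espn* window, beginning 197 bases before the start, and in 2.75% of all windows. A CArG box, the motif of serum response factor, read CCTTATATGG and began 73 bases before the start of *Vil1*. Such a box was held by 1.63% of all windows. The TATA box TATAAA was in 0 of the 11 windows and in 13.6% of all. In the shown sequences of *Myo7a* and *Myo1a* no searched motif occurred.

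Of the genes of the actin core and its tip, *Vil1* and *Eps8* were not called. *Vil1* (chromosome 1, 74455950 to 74482133 of mm9, plus strand) encodes villin, which bundles and severs actin. Its normalised count was 2353, 2446 and 1993 in the wild type libraries and 2295, 1948 and 2275 in the mutant ones, in the order 1, 2 and 3 here and for each gene that follows. The libraries of the groups overlapped (log2 fold change -0.06, SE 0.10, adjusted p = 0.68), and the 95% interval allows 83.4% to 110.4% of the wild type level. *Eps8* (chromosome 6, 137425766 to 137603397, minus strand) encodes a capping and bundling protein of the microvillus tip. It had 1876, 2321 and 2224 in the wild type libraries and 1979, 1748 and 2145 in the mutant ones. These groups overlapped as well (log2 fold change -0.13, SE 0.10, adjusted p = 0.36), with an interval of 78.9% to 105.9% of wild type.

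*Espn* (chromosome 4, 151494440 to 151526480, minus strand) encodes espin, another actin bundler. Its normalised counts were 696, 755 and 703 in the wild type libraries and 470.1, 553 and 546 in the mutant ones. Every mutant library was below every wild type library. The mutant level was 72.8% of the wild type level (log2 fold change -0.46, SE 0.12, adjusted p = 0.0126), with an interval of 60.7% to 87.4%, and *Espn* met neither the threshold of p nor that of fold change. Scaled by library size alone, *Espn* was called lower (log2 fold change -0.56, adjusted p = 0.0051). With DESeq2 (-0.43, adjusted p = 0.0084) and with a minimum mean of 50 raw counts (-0.47, adjusted p = 0.0086) it passed the p but not the fold change. With each library left out its adjusted p was 0.0157 to 0.0629.

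The genes that tie the core to the membrane differed among themselves. *Myo1a* (chromosome 10, 127142226 to 127157943, plus strand) encodes a class I myosin that links the core bundle to the membrane. Normalised counts were 764, 550.04 and 480 in the wild type libraries and 375, 279 and 305 in the mutant ones. The mutant libraries all lay below the wild type ones, and wild type 1 was the highest by a wide gap. The means were 598 ± 148 and 320 ± 49.5, and *Myo1a* fell to 53.5% of the wild type level, with an interval of 41.0% to 69.7% (log2 fold change -0.90, SE 0.18, adjusted p = 0.0018). The call was lost without wild type 1 (log2 fold change -0.69, adjusted p = 0.017) and without mutant 2 (-0.81, adjusted p = 0.0115). *Ezr* (chromosome 17, 6942390 to 6987133, minus strand) encodes ezrin, which links actin to membrane proteins. It had 9572, 9177 and 7753 in the wild type libraries and 8053, 7299 and 7476 in the mutant ones. Wild type 3 lay among the mutant libraries. The log2 fold change was -0.22 (SE 0.08, adjusted p = 0.0559), with an interval of 76.5% to 97.0% of wild type, and *Ezr* met neither the threshold of p nor that of fold change. With each library left out its adjusted p ran from 0.0018, without wild type 3, to 0.25, at log2 fold changes from -0.29 to -0.15.

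None of the 4 genes of the tip adhesion complex was called. *Cdhr5* (chromosome 7, 148454984 to 148462685, minus strand), which encodes a mucin-like protocadherin, had 1106, 1114 and 937 in the wild type libraries and 1294, 1147 and 1144 in the mutant ones. Each mutant library was above each wild type library, by a small margin (log2 fold change 0.18, SE 0.11, adjusted p = 0.21). Such separation in the higher direction was seen for 20.8% of all tested genes, and in the lower direction, as for *Myo7a*, *Myo1a* and *Espn*, for 22.2%. *Cdhr2* (chromosome 13, 54802822 to 54838023, plus strand), which encodes its partner, had 220.4, 532 and 252 in the wild type libraries and 256, 274 and 254 in the mutant ones. Wild type 2 alone was high, and the other 5 libraries lay between 220.4 and 274. The log2 fold change was -0.36 (SE 0.26, adjusted p = 0.32), and without wild type 2 it turned to 0.15 (adjusted p = 0.65).

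*Ush1c* (chromosome 7, 53450720 to 53493873, minus strand), the harmonin gene, had 2167, 2200.2 and 1889 in the wild type libraries and 2350.4, 1939 and 2313 in the mutant ones. The groups overlapped (log2 fold change 0.08, SE 0.09, adjusted p = 0.58), with an interval of 91.8% to 121% of wild type. *Myo7b* (chromosome 18, 32118888 to 32196615, minus strand), the motor of the complex, had 477, 499 and 332 in the wild type libraries and 377, 502 and 434 in the mutant ones. Its means were almost equal, 436 ± 90.9 and 437 ± 62.4, and the spread within each group leaves an interval of 77.8% to 129% of wild type (log2 fold change 0.00, SE 0.17, adjusted p = 0.99).

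*Myo7a* (chromosome 7, 105199570 to 105268034, minus strand) showed the largest difference of the 10 genes. Its raw counts were 140, 176 and 142 in the wild type libraries and 21, 42 and 21 in the mutant ones. The normalised counts were 131, 164 and 135 in the wild type libraries and 21.7, 44.7 and 23.2 in the mutant ones. The highest mutant library thus held far fewer counts than the lowest wild type library. *Myo7a* fell to 20.9% of the wild type level, with an interval of 12.8% to 34.2% (log2 fold change -2.26, SE 0.34, adjusted p = 1.8e-04). The call was kept in each of the 13 alternative fits, and the log2 fold change lay between -2.67 and -2.07 in them. Counts this low make the mutant level imprecise, and reads amplified by PCR without molecular identifiers are not independent molecules.

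**Figure D2:**
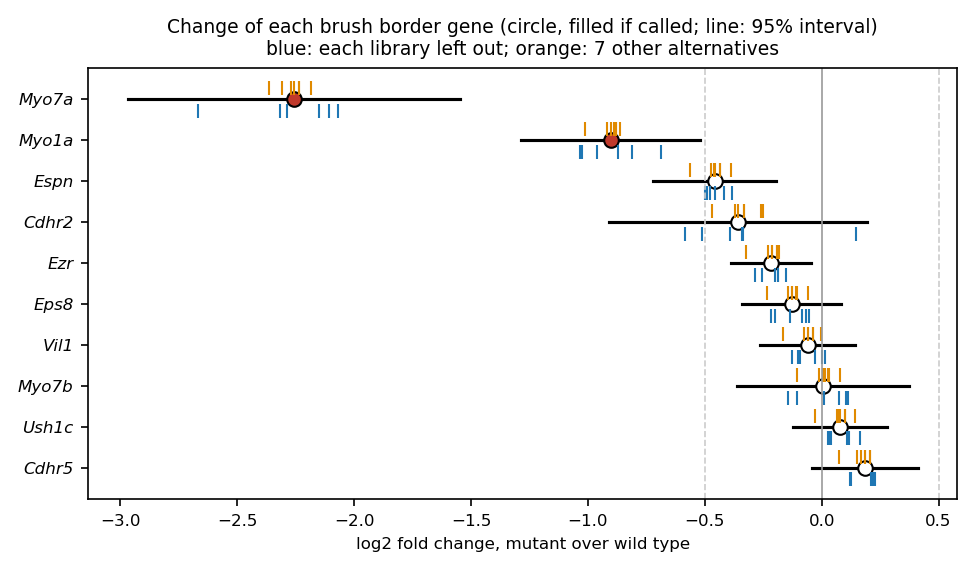
Log2 fold change, mutant over wild type, of each gene (circle, filled when called) with its 95% interval (black line), the values with each library left out (blue ticks) and those of 7 other alternatives (orange ticks). Dashed lines mark the fold change of 0.5 set for a call. *Myo7a*, *Myo1a*, *Espn*, *Ezr* and *Eps8* stay on the lower side throughout, and *Cdhr5* on the higher side. *Cdhr2* crosses 0 without 1 wild type library, and *Vil1*, *Ush1c* and *Myo7b* cross it in at least 1 alternative each.

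Across genes, reads scale with exon length, and fold changes in these libraries varied with it as well. With tested genes split by exon length into 10 bins, the shortest bin, up to 1446 bases, had a median log2 fold change of 0.19, and the bin of 4297 to 5093 bases had -0.16. *Myo7a*, with 8524 bases of exon, lies in the longest bin, where the median was -0.11 and 5.44% of genes were called lower. *Myo1a*, with 3386 bases, lies in the bin of 3071 to 3647 bases, where the median was -0.10 and 7.46% were called lower. Both differences were larger than these medians. The part that length played in them was not tested beyond a fit with a length correction, in which the log2 fold change was -2.18 for *Myo7a* and -0.86 for *Myo1a*. None of the 10 genes has a near-identical copy (95% identity or more across 50% or more of the transcript) elsewhere in mm9. Exons on the opposite strand overlap 1.41% of the exon bases of *Vil1* and 0.122% of those of *Ezr*, and none of the other 8.

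Levels were compared between genes per length, as normalised counts per kilobase of exon and library size (RPKM). In wild type, *Ezr* was the highest at 138 ± 14.9 RPKM, and 95.4% of the tested genes of known length were at or below it. *Vil1* followed at 32.7 ± 3.45 and *Ush1c* at 29.1 ± 2.39, and their libraries overlapped. *Cdhr5* was at 20.4 ± 1.94 and *Eps8* at 19.1 ± 2.10, again with overlap between the pair. *Myo1a* was at 9.05 ± 2.24 RPKM, above *Espn* at 6.15 ± 0.277 in every library. *Cdhr2*, at 4.16 ± 2.13, overlapped with *Espn* above it and with *Myo7b*, at 3.37 ± 0.703, below it. *Myo7a* was the lowest at 0.862 ± 0.108 RPKM, and 17.0% of the tested genes were at or below it. In every wild type library the genes for ezrin, villin and harmonin were above both class VII myosin genes. With the longest transcript in place of all exons, 6 of the 10 genes kept their rank, since *Eps8* passed *Cdhr5* and *Espn* passed *Myo1a*.

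In the mutants the order by mean level was the same except that *Myo7b*, at 3.38 ± 0.483 RPKM, stood above *Cdhr2*, at 3.24 ± 0.133. *Myo1a* came to 4.84 ± 0.749 RPKM, overlapping with *Espn* at 4.48 ± 0.394. *Myo7a* was at 0.180 ± 0.0773 RPKM.

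**Figure D3:**
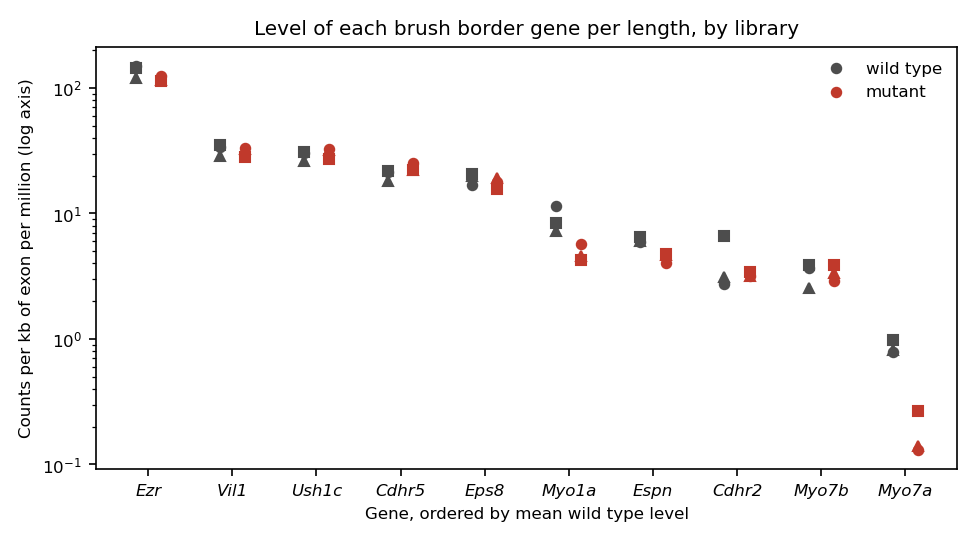
Normalised count per kilobase of exon and library size (RPKM, log axis) of each gene in every wild type (grey) and mutant (red) library, with circles, squares and triangles for libraries 1, 2 and 3. Genes are ordered by wild type mean, from *Ezr* at 138 to *Myo7a* at 0.862, and the gap between the groups is widest for *Myo7a*.

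The genes that work with these 10 were examined in 8 lists, holding 130 genes found in the files, of which 115 were tested. Of the tested genes, 16 were called lower and 7 higher, with a median log2 fold change of -0.12. That is 13.9% lower and 6.09% higher, beside 5.83% and 2.78% of all tested genes. Of the 23 called genes, 10 kept their call in all 13 alternative fits, and none of the 23 changed direction.

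**Figure D4:**
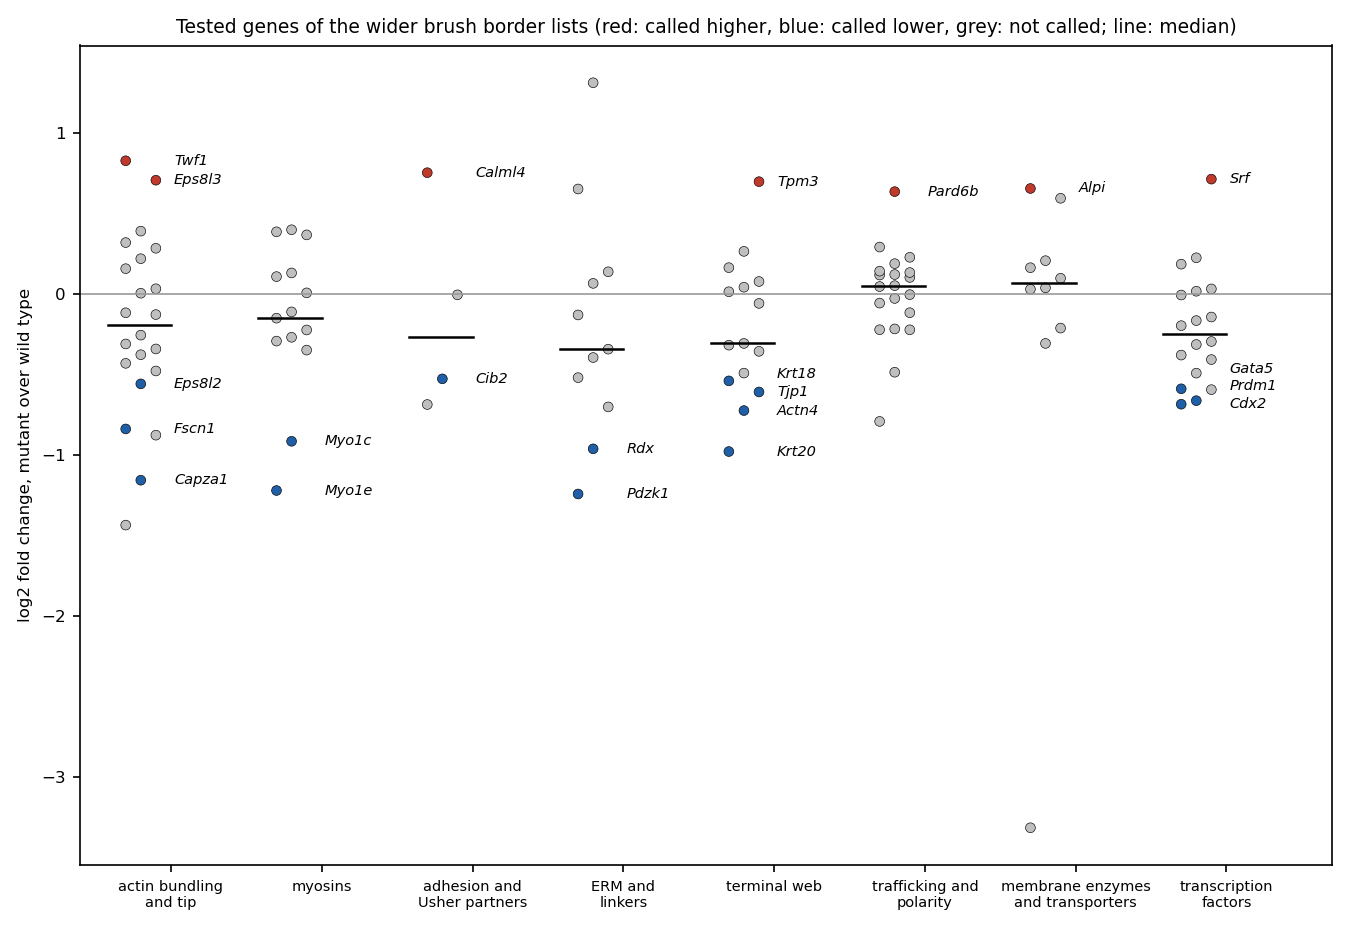
Log2 fold change, mutant over wild type, of the tested genes reported here from each of 8 lists, one point per gene, with called genes named in red (higher) or blue (lower), uncalled genes in grey and the median of the whole list as a line. Called genes lie on both sides of 0, 16 lower and 7 higher over the whole lists, and the lone grey point near -3.31 is *Mme*, whose mean count was too low for a call.

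Of 22 tested genes of actin bundling and of the tip, 3 were called lower and 2 higher. *Fscn1*, which encodes the bundler fascin, fell from 3899 ± 245 to 2180.4 ± 248 (log2 fold change -0.84, adjusted p = 6.6e-06), while *Pls1*, the plastin of the microvillus core, had a log2 fold change of -0.12 (adjusted p = 0.29). The relatives of *Eps8* went opposite ways. *Eps8l3* rose from 1184 ± 97.3 to 1930.5 ± 253 (log2 fold change 0.71, adjusted p = 2.1e-04), and *Eps8l2* fell from 1750 ± 267 to 1188 ± 120 (-0.56, adjusted p = 0.0024). The call of *Eps8l2* was lost without wild type 1, wild type 2 or mutant 2 and with the length correction, at log2 fold changes from -0.55 to -0.45. *Capza1*, a subunit of the actin capping protein, fell (log2 fold change -1.16), and *Twf1*, whose product binds actin monomers and capping protein, rose (0.83). *Capza1* has 2 near-identical copies elsewhere in mm9 and *Twf1* has 1, so their counts of uniquely mapped reads are uncertain. The actin genes *Actb* and *Actg1* had the highest counts of this list, with log2 fold changes of 0.16 and 0.39, under the fold change set for a call, and *Actg1* has 6 such copies.

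Of 15 tested myosin genes, 3 were called lower and 0 higher. *Myo1e* fell from 449 ± 116 to 193 ± 19.0 (log2 fold change -1.22, adjusted p = 3.6e-04) and *Myo1c* from 539 ± 156 to 286 ± 60.6 (-0.92, adjusted p = 0.005), and both encode class I myosins like *Myo1a*. *Myo1d*, which encodes a class I myosin too, had 848 ± 63.2 and 764 ± 80.3 (log2 fold change -0.15, adjusted p = 0.37). The grouping by class was made after the values were seen. The call of *Myo1e* held in every alternative, whereas *Myo1c* lost it without wild type 1, wild type 2, mutant 1 or mutant 2 and with the length correction (-0.97 to -0.75). *Myo5b* and *Myo6*, motors of apical trafficking, had log2 fold changes of 0.39 and 0.11 (adjusted p = 0.0691 and 0.515). The myosin light chain genes *Myl12b* and *Myl12a*, with the highest counts, had 0.01 and 0.40 (adjusted p = 0.96 and 0.0015). *Myl12a* was thus past the p but under the fold change set for a call.

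The list of adhesion complex and Usher genes had 4 tested genes among 12 in the files. *Calml4*, which encodes a calmodulin-like light chain of MYO7B, rose from 2364 ± 177 to 3981 ± 171 normalised counts (log2 fold change 0.75, SE 0.08, adjusted p = 5.8e-06). Its counts were 2250, 2274 and 2568 in the wild type libraries and 3854, 4176 and 3915 in the mutant ones, with no overlap. Under the length correction *Calml4* came to 0.49 on the log2 scale, just short of a call. *Anks4b*, the scaffold that joins the complex with harmonin, had 496 ± 115 and 494 ± 69.0 (log2 fold change -0.01, adjusted p = 0.98). *Cib2*, whose product binds calcium and serves hair cells, fell from 709 ± 73.6 to 492 ± 42.6 (-0.53, adjusted p = 0.0077), but lost its call when any 1 of the 6 libraries was left out (adjusted p up to 0.0435). The genes of the hair cell tip link, *Cdh23* and *Pcdh15*, had means of at most 2.81 normalised counts in either group, and *Clrn1* and *Cdhr3* had 0 counts in all libraries, so no change in them was detectable at this depth.

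Of 11 tested genes of the ezrin family and its partners, 2 were called lower and 0 higher. *Rdx*, which encodes the ezrin relative radixin, fell from 222 ± 29.3 to 114 ± 10.9 (log2 fold change -0.96, adjusted p = 0.0034). *Pdzk1*, a PDZ scaffold of the apical membrane, fell from 204 ± 32.7 to 86.3 ± 16.04 (-1.24, adjusted p = 0.0013). *Slc9a3r1*, the scaffold that binds ezrin, had 5496 ± 334 and 4333 ± 179 (-0.34, adjusted p = 0.0027), past the p but under the fold change set for a call. *Rhoa*, also high in counts, had 0.07 on the log2 scale (adjusted p = 0.57), and 2 near-identical copies of it lie elsewhere in mm9. The call of *Rdx* was lost without wild type 1, wild type 2, mutant 2 or mutant 3 (log2 fold changes -0.95 to -0.87), and that of *Pdzk1* without wild type 2 (-1.10, adjusted p = 0.0117).

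In the terminal web, the mesh on which the microvillus cores rest, 4 of 15 tested genes were called lower and 1 higher. *Krt20*, a keratin of mature enterocytes, fell from 1893 ± 86.3 to 961 ± 115 (log2 fold change -0.98, adjusted p = 5.9e-06). *Actn4*, an actin crosslinker, fell by 0.72 and *Krt18* by 0.54 on the log2 scale, and the tight junction gene *Tjp1* by 0.61. *Tpm3*, a tropomyosin gene, rose by 0.70, and 1 near-identical copy of it lies elsewhere in mm9. *Krt18* came to just under 0.5 without wild type 3 or mutant 3, at log2 fold changes of -0.50 and -0.49. *Tjp1* lost its call without wild type 1, wild type 2, mutant 2 or mutant 3 and with the length correction (-0.69 to -0.43). *Krt8* and *Krt19*, the keratins with the highest counts, had log2 fold changes of -0.32 and -0.49 (adjusted p = 0.00105 and 2.8e-05), under the fold change set for a call. Elsewhere in mm9 lies 1 near-identical copy of *Krt8*. *Krt19* was called lower in 5 of 13 alternatives, namely scaling by library size alone, a minimum mean of 50 raw counts, the length correction, and omission of wild type 1 or of mutant 1, and its log2 fold change lay between -0.60 and -0.47 over all 13.

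Of 20 tested genes of apical trafficking and polarity, 1 was called higher and 0 lower. *Pard6b*, a polarity gene, rose from 1832 ± 265 to 2844 ± 121 (log2 fold change 0.63, adjusted p = 2.5e-04), while *Cdc42* and *Rab11a* had 0.12 and 0.10 (adjusted p = 0.21 and 0.28). Of 10 tested enzymes and transporters of the microvillus membrane, *Alpi*, intestinal alkaline phosphatase, was the one called, at a log2 fold change of 0.65. The call of *Alpi* was lost without wild type 2 (0.56), without mutant 1 (0.49) and when libraries were scaled by their size alone (0.55). *Dpp4* and *Enpep*, peptidases with the highest counts, had -0.31 and 0.16 (adjusted p = 0.0046 and 0.38). *Dpp4* was thus past the p but under the fold change set for a call. *Mme*, which encodes neprilysin and was singled out after its values were seen, had 119, 30.8 and 74.1 normalised counts in wild type and 15.5, 6.39 and 0 in mutant libraries.

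Among 18 transcription factor genes that act on enterocyte genes, 3 were called lower and 1 higher. *Prdm1*, a repressor of the adult enterocyte programme in the foetal gut, fell from 2895 ± 178 to 1829 ± 171 (log2 fold change -0.66, adjusted p = 6.4e-05). *Cdx2* fell from 796 ± 148 to 495 ± 66.3 (-0.68, adjusted p = 0.0035) and *Gata5* by 0.59. *Srf*, which encodes serum response factor, an activator of actin and myosin genes, rose from 445 ± 49.3 to 729 ± 66.4 (0.71, adjusted p = 0.0012). *Elf3* and *Klf5*, with the highest counts, had 0.18 and 0.03. *Cdx2* lost its call without wild type 1, wild type 2, mutant 1 or mutant 2 (log2 fold changes -0.72 to -0.53), *Gata5* without wild type 1, wild type 2 or mutant 3 (-0.56 to -0.52), and *Srf* without wild type 1 (0.63, adjusted p = 0.01002).

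Markers of cell types were measured beside these genes. The epithelial markers were high in every library, with summed normalised counts of 127723 to 139041 in the wild type libraries and 131482 to 135453 in the mutant ones. Of these markers, 3 of 6, *Cdh1*, *Cdx2* and *Krt18*, were called lower. *Epcam* and *Cldn7* were higher in every mutant library, at log2 fold changes of 0.25 and 0.24, under the fold change set for a call. Of all tested genes, 5.83% were called lower and 2.78% higher. Of 7 enterocyte markers, 5 were called higher, and their sum was 16392 to 18555 in the wild type libraries and 23273 to 25454 in the mutant ones. Goblet markers summed to 1285 to 1538 and to 394 to 532, with 2 of 4 tested called lower, and gastric markers to 459.5 to 482 and to 110 to 140, with 1 of 4 tested called lower. Enteroendocrine markers summed to 384 to 1460 and to 225 to 313, and 0 of 2 tested were called. Most of the mutant sum was *Sct*, at means of 233 and 270 (log2 fold change 0.21). *Neurod1* fell from 89.7 ± 29.1 to 0 in every mutant library (adjusted p = 6.8e-06), but its mean count was too low for a call. *Chgb* and *Neurog3* were not tested. *Chgb* had 453 ± 475 in wild type and 0 in every mutant library, and *Neurog3* had means of 85.1 and 2.87. Tuft markers summed to 48.5 to 137 and to 91.6 to 108. Liver markers summed to 3153 to 3992 and to 2238 to 2540, most of it *Afp*, which was not called, at means of 2862 and 2363. Of 3 tested, 2 were called lower, *Fgb* and *Serpina1a*, the latter from a mean of 582 to 28.9 (log2 fold change -4.32). *Alb* had means of 2.18 and 0, and *Ahsg* had 0 counts in all libraries. Mesothelial markers summed to 542 to 820 and to 424 to 715. Of 2 tested, *Msln* was called lower, and the other had a log2 fold change of 0.39. Mesenchymal markers summed to 1237 to 1498 and to 905 to 987, with *Vim* at means of 1252 and 913. The 3 mesenchymal markers tested were all lower in the mutants, with log2 fold changes from -2.21 to -0.46. Of them, 1 had an adjusted p under 0.01, and 0 were called. Neural crest markers summed to 169 to 183 and to 162 to 372. All 3 tested were higher in the mutants, with log2 fold changes from 0.08 to 2.95, and 0 were called. Pancreas, endothelial and blood markers summed to at most 27.97 in any library, with *Ptf1a*, *Cdh5*, *Kdr* and *Ptprc* at 0 in all. The part of any of these in the fall of *Myo7a*, *Myo1a* or their partners was not tested.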

How the data were processed

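The 6 count tables hold RNA-sequencing libraries of 500 EpCAM-positive cells each. The authors synthesised cDNA with the SMARTer v4.0 kit (15 cycles), mapped 84-base reads to mm9 with STAR 2.5.2b and counted uniquely mapping reads per gene of a UCSC model with featureCounts 1.5.1; these raw counts were deposited without normalisation. Strand use in counting is not given in the sources used here. The authors' own test was DESeq2 1.18.1.

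Differences were tested here by edgeR 4.0.16 (R 4.3.3, TMM, filterByExpr, quasi-likelihood test of genotype, p adjusted over 12501 genes by Benjamini-Hochberg), and the code was tried on simulated data. Intervals are 95%, from the fitted SE. The mean count of 50 was used in place of the study's minimum of 50 RPKM and is a much looser limit. *Myo1a*, at 9.05 RPKM in wild type, and *Myo7a*, at 0.862, passed the first but lie under the second. Calls made here are therefore not those of the study's rule. Exon lengths and positions came from GENCODE vM1 (mm9), which placed 98.5% of tested genes, and copies from BLAST+ 2.17.0. Alternatives were DESeq2 1.42.0, RLE, library size, filters, thresholds, a loess length correction (span 0.5), the replicate number as a block, and omission of each library in turn. The wider lists name every called gene except 1 that is not reported here, and the 2 with the highest counts; the others named were chosen after their values were seen. The members and lists were chosen with earlier results of these data known. Figures were drawn with matplotlib 3.10.9.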

Additional observations from a re-analysis of the deposited data

How the results depend on the processing

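*Tcf7l1* and *Myo7a* kept direction and call in all 13 alternative fits. The number of brush border genes called lower was 2 in the fit reported and 1 to 2 with each library left out (1 without wild type 1 or mutant 2). It was 1 with a minimum log2 fold change of 1 and 0 with a minimum RPKM of 50. That 0 was set by the levels, since of the 10 genes only *Ezr*, at 138 RPKM in wild type, lay above 50. Of the wider lists, 16 genes were called lower and 7 higher. With each library left out these were 8 to 16 and 6 to 7, the lower calls being 9 when wild type 1 was omitted, 8 for wild type 2 and 10 for mutant 2. With the minimum fold change of 1 they were 3 and 0, with the minimum RPKM of 50 they were 3 and 2, and with no minimum fold change they were 21 and 11. With library size as the only scaling, the median of all genes shifted by -0.11, all calls went from 729 lower and 348 higher (32.3% higher) to 958 and 200 (17.3% higher), and log2 fold changes turned to -0.11 for *Myo7b*, -0.029 for *Ush1c*, -0.098 for *Myl12b*, -0.039 for *Rhoa*, -0.0027 for *Rab11a* and -0.076 for *Klf5*. With a minimum mean of 50 raw counts, *Myo7b* and *Myl12b* had -0.010 and -0.0076, and with the length correction *Myl12b*, *Rhoa* and *Klf5* had -0.11, -0.0096 and -0.087. With each library left out, values lay between -0.59 and 0.15 for *Cdhr2*, -0.14 and 0.11 for *Myo7b*, -0.13 and 0.014 for *Vil1*, -0.044 and 0.10 for *Myl12b* and -0.084 and 0.15 for *Klf5*. Over all tested genes, lower calls were 405, 406 and 463 when wild type 1, wild type 2 or mutant 2 was omitted and higher calls were 516 without wild type 3. With the longest transcript, 6 genes kept their rank by level. Apart from the RPKM minimum for the brush border genes, the cause of these moves was not tested.

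No pairing by replicate number was seen, as deviations of same-numbered libraries correlated at 0.00971, -0.0449 and -0.0179 across genes. Such a correlation cannot show a pairing that affects few genes, and the labels do not name litters. With the number as a block, 2 brush border genes and 15 listed genes were called lower and 7 higher, and *Cib2* alone lost its call (adjusted p = 0.0101).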

Other observations

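Ratios of levels per length, which do not depend on the scaling of a library, were computed for pairs of the brush border genes after their values were seen and are given with no test. *Myo7b* was 3.16 to 4.68 times the level of *Myo7a* in wild type and 14.4 to 24.0 times in mutant libraries, with no overlap. *Vil1* was 2.94 to 4.24 times the level of *Myo1a* in wild type and 5.84 to 7.11 times in mutant libraries, again without overlap. For *Vil1* over *Espn* the ratios were 4.77 to 5.69 and 5.93 to 8.22. The ratios over *Myo7a*, *Myo1a* and *Espn* restate the lower mutant counts of those genes given above and are not further evidence of them. The ratio of the protocadherin genes, *Cdhr5* over *Cdhr2*, was 3.27 in wild type 2, where *Cdhr2* was high, 5.82 and 7.84 in the other wild type libraries and 6.55 to 7.91 in the mutants. *Ush1c* was 7.97 to 10.3 times *Myo7b* in wild type and 6.98 to 11.3 times in mutant libraries, so the groups overlapped.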
